A study of Mus musculus with 6 samples.

Results

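Serpins are a large family of protease inhibitors and related proteins, and their mouse members were followed here in thymic tuft cells, the chemosensory epithelial cells of the thymus. Members were taken by symbol, as every gene whose name starts with Serpin followed by a clade letter and a number, and serpin pseudogenes were set aside. This gave 63 members among the 55471 genes of the expression table. Of these, 36 reached a mean normalized count of at least 10 over the 6 libraries and were tested, and 27 did not, among them 3 without a read in any library. A normalized count is the read count of a gene after division by its library's size factor. Both groups of mice carried floxed alleles of Ikzf1, the gene of the zinc finger transcription factor Ikaros. The 3 control samples came from mice without the Foxn1-Cre transgene and are given as WT, and the 3 samples from mice with Foxn1-Cre are given as KO. Foxn1-Cre is a recombinase driven from a gene of the thymic epithelium, so recombination is not limited to tuft cells. Tuft cells were sorted on the surface protein L1CAM and RNA was sequenced from SMART-seq lysates. The sources used here give no age, sex or strain background. Of the columns of the table, 3 carry the name Ko and 3 the name Het, each with a number, and Het was taken for the Cre-negative group by elimination. Het and Ko below mean the libraries so labelled.

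A typical serpin inhibits a protease by offering a flexible reactive centre loop as bait. The protease cuts the loop, the loop inserts into the body of the serpin, and the protease is dragged along and trapped in a covalent complex, so that each serpin molecule is used up in the act. The short hinge at the start of the loop must fold in for this to work, and the residues after it decide which protease takes the bait. Clade A serpins are mostly secreted, clade B serpins are mostly kept inside the cell, where they guard against leaked lysosomal and granule proteases, and some members have lost inhibition and act as hormone carriers or chaperones. In the mouse many members lie in gene clusters, with clade A on chromosome 12 and clade B on chromosomes 1 and 13, and recent duplications have multiplied the Serpina1, Serpina3, Serpinb1, Serpinb6 and Serpinb9 groups.

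Values are listed below in the order of the column numbers, 1 to 3. Ikzf1 itself was measured at 301, 187 and 273 normalized counts in Het and at 1572, 1463 and 1717 in Ko libraries. It was thus higher in the libraries labelled Ko (log2 difference 2.66 ± 0.30 (SE), limma adjusted p = 0.0105), so every direction below is one between labels. The floxed part of the gene cannot be seen in gene counts, and this value does not check the deletion. Sorted tuft cells carried their markers in all libraries, with Trpm5, the taste transduction channel, between 11647 and 19979, and all 14 tuft markers reached the level tested. Of these 14, 12 had a difference above 0 and 2 below. Limma called 1 of them, Gnb3, lower in Ko libraries (log2 difference -1.22 ± 0.20 (SE), limma adjusted p = 0.0341), while edgeR called 0 and DESeq2 called 1. Whole reads recovered from the table came to between 12238400 and 31435800 per library. The labels do not say whether each sample is 1 animal, so a p-value speaks for the spread among these libraries, which may be technical.

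Clade B paralogs on chromosome 13 lay at different levels and on different sides of the comparison, and their coding sequences around the hinge are shown for that reason. Each line starts at the hinge, found as a codon run for Glu, any residue, Gly and Ser or Thr within the last 75 codons, which stands in capitals (12 bases). The lower-case bases run on through the reactive centre loop to a total of 72 bases, or 24 codons. Sequences are the coding strand, 5′ to 3′, from GENCODE M21 transcripts on GRCm38, a build other than the GRCm39 of the deposited table. All lie in coding exons on chromosome 13.
Serpinb9: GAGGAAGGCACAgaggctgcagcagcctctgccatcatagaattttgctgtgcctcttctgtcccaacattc
Serpinb9b: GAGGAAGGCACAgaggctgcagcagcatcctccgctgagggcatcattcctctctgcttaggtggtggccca
Serpinb9d: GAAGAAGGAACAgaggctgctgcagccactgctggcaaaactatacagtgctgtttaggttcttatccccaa
Serpinb9e: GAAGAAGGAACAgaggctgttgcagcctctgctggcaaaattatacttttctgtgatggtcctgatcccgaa
Serpinb6a: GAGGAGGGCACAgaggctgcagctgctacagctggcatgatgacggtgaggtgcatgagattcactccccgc
Serpinb6b: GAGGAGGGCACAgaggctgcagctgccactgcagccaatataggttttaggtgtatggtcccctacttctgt
Serpinb6c: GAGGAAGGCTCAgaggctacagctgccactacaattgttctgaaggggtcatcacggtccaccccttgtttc
Serpinb1a: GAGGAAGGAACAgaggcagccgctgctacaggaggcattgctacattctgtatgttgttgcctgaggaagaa
Serpinb1b: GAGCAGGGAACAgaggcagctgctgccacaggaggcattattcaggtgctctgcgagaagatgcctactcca
The hinge opens at codon 324 of 374 in Serpinb9 and Serpinb9b opens it at codon 324 of 377. Serpinb9 and Serpinb9d matched at 81.9% of aligned bases before the hinge, and at 51.4% of the window (37 of 72 bases). Serpinb9 and Serpinb9b were alike at 86.2% before the hinge and at 51.4% within the window. Serpinb9d and Serpinb9e were closer, with 95.5% before the hinge and 83.3% in the window. Serpinb6a differed from Serpinb6b (87.4% before the hinge, 65.3% in the window) and from Serpinb6c (88.4% and 54.2%) in the same way, as did Serpinb1a from Serpinb1b (91.8% and 55.6%). The window share was the lower one in each of these pairs, but the shares are not on a like measure. Windows were compared base by base without gaps, while the stretch before the hinge was aligned with gaps. Loops of unequal length can lose matches when no gaps are allowed. By aligned bases over the whole coding sequence, Serpinb9 and Serpinb9b were alike at 86.4%, no lower than before the hinge. Serpinb9 and Serpinb9d stood at 81.9% in both. The other pairs were lower over the whole coding sequence than before the hinge. Serpinb6a was at 86.3% with Serpinb6b and 87.2% with Serpinb6c. Serpinb1a and Serpinb1b were at 90.7%, and Serpinb9d and Serpinb9e at 94.8%. A hinge match was found in 50 of the 63 members. The 13 without one include Serpinb5, Serpinf1, Serpinh1 and Serpina6, which are known as serpins that do not inhibit proteases, and also Serping1 and Serpinf2, which are inhibitors, so a missing match does not mark a gene as non-inhibitory.

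Duplicated members also share sequence that short reads cannot place. Of the 50-base stretches of its longest coding transcript, Serpinb9 shared 0.380% with another gene, Serpinb6b shared 3.12%, Serpinb1b shared 3.52%, Serpina3n shared 6.90% and Serpinb6c shared 10.4%. Serpinb9d shared 30.8%, chiefly with Serpinb9e and Serpinb9g, and Serpinb9f shared 78.7%. Serpinb2, Serpinb5, Serpinb7, Serpinb11, Serpinb12, Serpina12, Serping1 and Serpinh1 shared none. No source used here names the counting tool, so values of Serpinb9d to Serpinb9h and of the Serpina1 genes are uncertain.

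Serpins together took 2030, 2375 and 2982 RPM (recovered reads scaled to the total of the library) in Het and 1511, 1782 and 923 RPM in Ko libraries. The sum was lower in every Ko library than in every Het library. In bulk samples, fewer cells of a type and less RNA per cell cannot be told apart. Clade B made up most of it. Serpinb2, Serpinb11, Serpinb1a and Serpinb6a alone gave 68.7% to 80.6% of the family's normalized counts in a library. Compared as levels per kilobase of exon, Serpinb2 stood highest, with a mean of 6434 normalized counts per kilobase in Het and 2674 in Ko libraries. Serpinb1a followed with 3022 and 1994, Serpinb11 with 2950 and 787, and Serpinb6a with 889 and 954. Beyond these 4, Serpinb7 had 734 and 111 per kilobase and Serpinb9 had 471 and 147. The secreted plasma inhibitors lay far lower, with Serping1 at 26.3 and 161 and Serpinc1 at 4.32 and 2.43. The length used was that of all annotated exons of a gene together. For Serpinb6a it was 5409 bases, while its longest coding transcript has 1504, and for Serpinb2 it was 2349 against 1996. The order of these levels thus depends on the length taken. The difference in the sum between groups lay mainly in the chromosome 1 cluster, whose summed normalized counts were 22760, 16585 and 36910 in Het and 12264, 15362 and 1812 in Ko libraries. The chromosome 13 cluster summed to 10791, 22954 and 13067 in Het and to 10266, 10963 and 12082 in Ko libraries, where the groups overlapped.

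**Figure D1:**
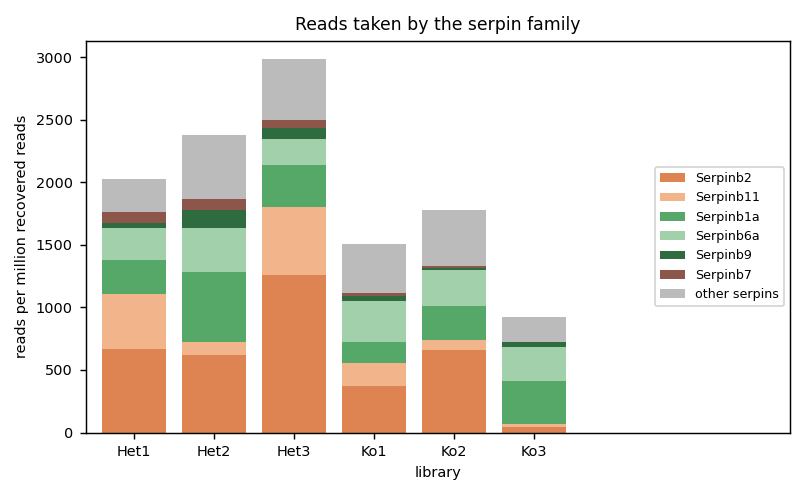
Stacked bars give the RPM of recovered reads (y axis) that serpin genes took in each of the 6 libraries (x axis), split into 6 named members and the rest. The Het bars reach 2030 to 2982 and the Ko bars 923 to 1782, and in Ko3 the share of Serpinb2 shrinks to a thin band.

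No serpin passed limma's adjusted p threshold of 0.05, neither upward (0 of 36 members tested, beside 0.288% of all 19416 genes tested) nor downward (0 of 36, beside 0.525%). At an unadjusted p under 0.05, limma gave 4 members higher in Ko libraries (beside 5.62% of all genes) and 9 lower (beside 7.99%). The 4 higher were Serpina3n, Serpinb9d, Serping1 and Serpinh1. The 9 lower were Serpina12, Serpinb1b, Serpinb2, Serpinb6b, Serpinb6c, Serpinb7, Serpinb9, Serpinb11 and Serpinb12. This count of 13 members came to 5 without Het2 and also without Het3, and to 8 without Ko1 and also without Ko2. Over all genes the count was 2644, and it came to 2127, 2085, 2349 and 2291 in the same order. Ko and Het values did not overlap in 3 members that were higher in Ko (beside 8.57% of all genes) and in 5 that were lower (beside 9.86%). The 3 higher were Serpina3n, Serpinb9d and Serpinh1, and the 5 lower were Serpina12, Serpinb6b, Serpinb7, Serpinb9 and Serpinb9c. A count of 3 in 36 is near the background of all genes. Serpina3n and Serpinb9c enter these counts although they reached the level tested only through the group in which they are high, and the place of Serpina3n rests on 2 reads in Ko3.

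Count models on the recovered reads gave differing answers. EdgeR's quasi-likelihood test called 0 members higher (0.124% of all genes) and 0 lower (0.263%), with 12 members at an unadjusted p under 0.05, beside 2725 of all 19416 genes. DESeq2 called 3 members higher, Serpina3n, Serpinb9d and Serping1 (beside 2.1% of genes with an adjusted p), and 4 lower, Serpina12, Serpinb6b, Serpinb6c and Serpinb9 (beside 4.24%), of 34 members with an adjusted p. In the authors' deposited table the same 3 were higher (beside 3.03%), and Serpina12, Serpinb6c and Serpinb9 were lower (beside 5.16%). The count of 7 DESeq2 calls moved with single libraries. It was 1, Serpinb6c, without Ko2, 3 without Het2, 3 without Het3, 5 without Het1, 6 without Ko1 and 8 without Ko3. Over all genes DESeq2 called 1164, 870, 867, 1498, 1219 and 1014 in the same order, and 1118 with all libraries. Serpina3n and Serpinb6c enter the 7 calls, and the limma counts at an unadjusted p. Both reached the level tested only through the group in which they are high.

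Over the 36 tested members the median log2 difference between Ko and Het was -0.63, with 15 above 0 and 21 below (58.3% below), beside a median of -0.05 and 52.8% below 0 over all 19416 genes. The members' median was -0.23 in edgeR's fit, -0.24 in that of DESeq2, -0.30 without Het2, -0.13 without Het3 and -0.25 without Ko3. The mean over all libraries set which members were tested, and 2 tested members had a mean under 10 in Het and 4 in Ko libraries. These 6, Serpina3f and Serpina3n in the first case and Serpina10, Serpinb6c, Serpinb9c and Serpini2 in the second, passed only through the group in which they were high, so their differences do not support a direction of the family. Members lay farther apart within a group than genes did in general. Within the Het group the median range over the 3 libraries was 2.08 log2 units for members and 1.24 for all genes tested, and within the Ko group it was 2.46 and 1.21. Among genes with a mean of at least 100 the ranges were 1.82 and 0.81 in Het and 2.15 and 0.79 in Ko libraries.

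**Figure D2:**
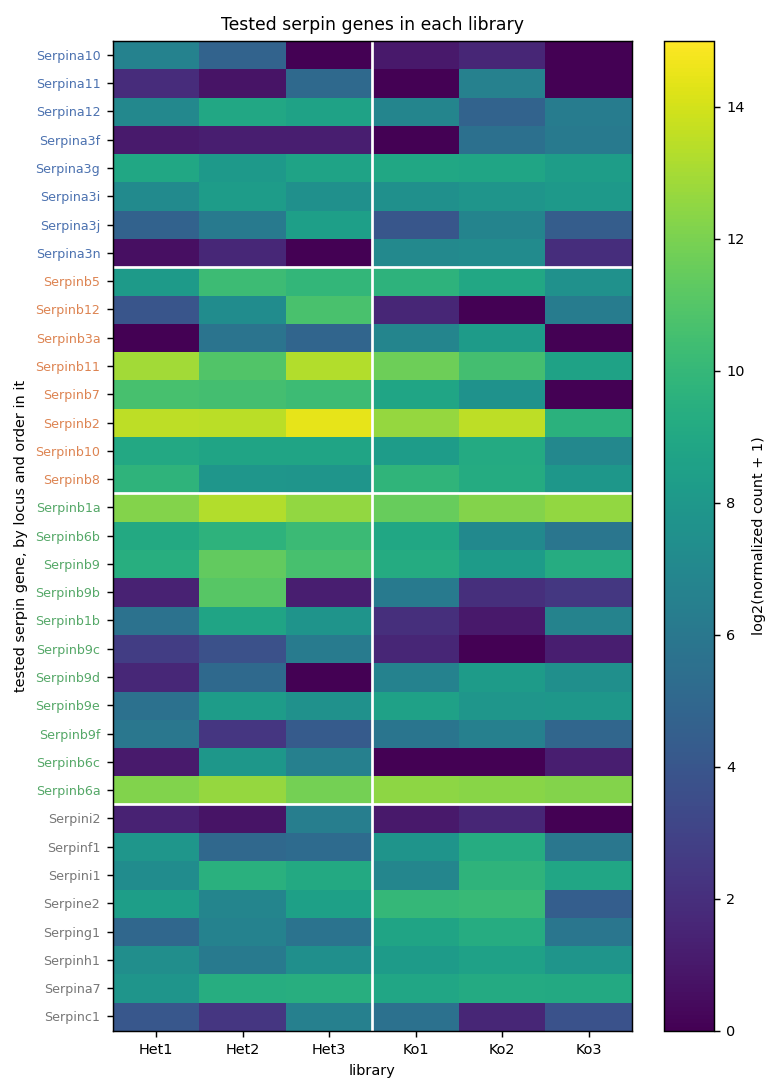
Colour gives log2(normalized count + 1) of 35 of the 36 tested serpins (rows, by locus and order within it) in the 6 libraries (columns). Serpinb2, Serpinb11, Serpinb1a and Serpinb6a stand out as bright rows, and many dim rows are bright in a single library, as Serpinb9b in Het2.

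The Serpinb9 group held members on opposite sides. Serpinb9 is the inhibitor of granzyme B that protects cells carrying or meeting cytotoxic granules. Its normalized counts were 667, 2679 and 1594 in Het and 608, 300 and 630 in Ko libraries. The lowest Het library lay just above the highest Ko library, so the groups did not overlap. The means were 1647 ± 1007 and 513 ± 184 (SD, n = 3 each), 3.21-fold lower in Ko libraries. The log2 difference was -1.54 ± 0.49 (SE), with a limma adjusted p of 0.200, and the adjusted p in the authors' deposited table was 0.0362. Its paralog Serpinb9d had 2.24, 34.1 and 0 in Het and 99.8, 295 and 179 in Ko libraries. Each Ko library was thus above the highest Het library. The means were 12.1 ± 19.1 and 191 ± 98.3 (SD, n = 3 each), 15.8-fold higher in Ko libraries. On the log2 scale the difference was 5.18 ± 1.39 (SE), with a limma adjusted p of 0.133, the smallest among the members, and the authors' deposited table gave 0.0332.

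Serpinb9b and Serpinb9e overlapped between the groups. Serpinb9b had 2181 normalized counts in Het2 and 1.68 and 1.44 in the other Het libraries, against 72, 3.11 and 4.30 in Ko libraries. Nearly all its signal thus came from Het2, and without that library its log2 difference turned from -1.06 to 2.19. Serpinb9e, the gene next to Serpinb9d, with 94.8% of aligned coding bases alike, had 48.1, 308 and 192 in Het and 385, 235 and 248 in Ko libraries. These values overlapped (log2 difference 0.98 ± 0.68 (SE), limma adjusted p = 0.582). Serpinb9c was at 5.59, 12.1 and 73.6 in Het and at 2.06, 0 and 1.43 in Ko libraries, where it rested on 3 reads, and its groups did not overlap. The rate of reads was 17.6-fold higher in Het libraries, with a 95% counting interval of 5.81 to 87.3, which covers counting error only. Granzyme B, the protease that Serpinb9 inhibits, was at or below 3.11 in every library.

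**Figure D3:**
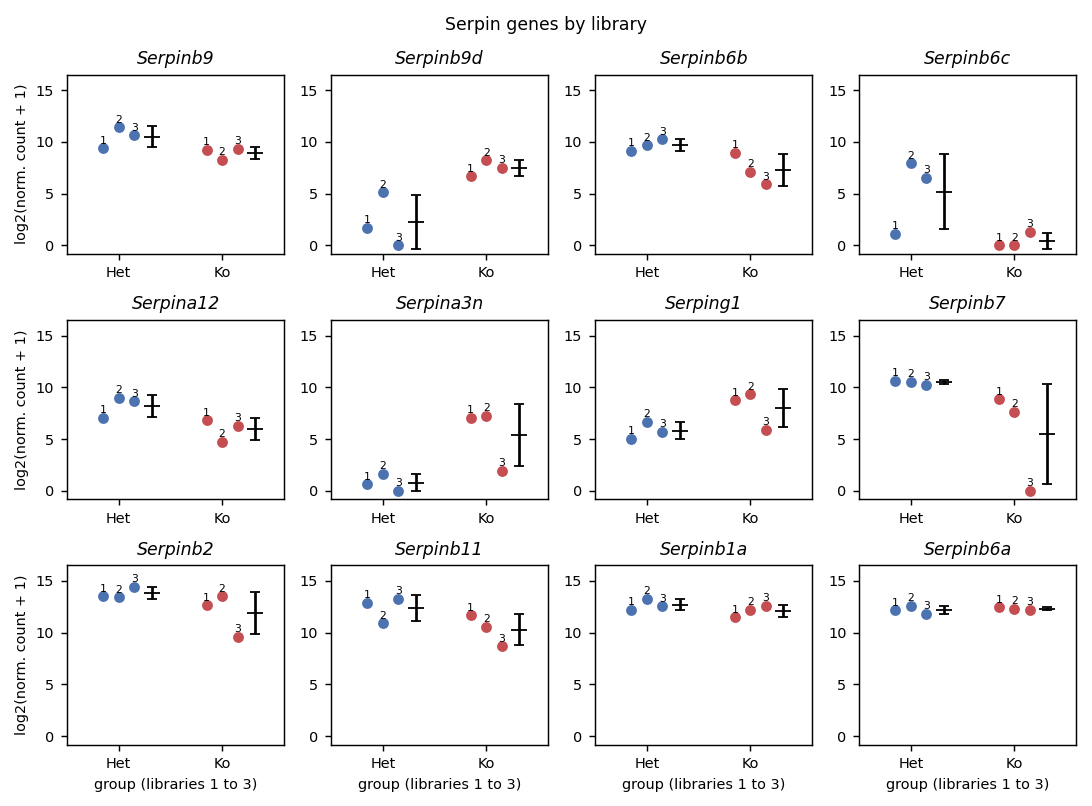
Points give log2(normalized count + 1) of 12 serpins in the Het (blue) and Ko (red) libraries, numbered 1 to 3, with the mean and SD beside them. Serpinb9 and Serpinb6b lie lower and Serpinb9d higher in Ko libraries without overlap, and Serpinb6a lies at a similar height in both groups.

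Ikaros is known to bind sites with the core TGGGAA, and this core was looked for in the 250 bases upstream of the start of each RefSeq gene, on both strands. The Serpinb9 and Serpinb9d windows are shown because these paralogs lay on opposite sides. They come from RefSeq on GRCm38.p6 and both genes are on the plus strand. Capitals mark the match, which reads TTCCCA here since it lies on the other strand.
Serpinb9, chr13:33004291-33004540: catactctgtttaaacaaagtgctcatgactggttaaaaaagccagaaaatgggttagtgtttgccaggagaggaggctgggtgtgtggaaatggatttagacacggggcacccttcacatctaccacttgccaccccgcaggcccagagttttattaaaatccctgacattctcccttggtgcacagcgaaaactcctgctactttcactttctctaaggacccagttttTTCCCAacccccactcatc
Serpinb9d, chr13:33192705-33192954: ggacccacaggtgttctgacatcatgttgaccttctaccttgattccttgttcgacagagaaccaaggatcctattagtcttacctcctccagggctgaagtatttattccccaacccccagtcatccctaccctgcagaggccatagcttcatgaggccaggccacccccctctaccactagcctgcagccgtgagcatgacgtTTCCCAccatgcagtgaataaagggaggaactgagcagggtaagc
Each window held 1 match. The core was present for 14 of the 54 members with an entry and for 10 of the 32 tested ones, beside 24.1% of all 27025 genes with an entry. A match is a description of letters and not of binding.

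Serpinb6 and Serpinb1 paralogs share the cluster with the Serpinb9 genes, and in both sets 1 copy was far more abundant than the others. Serpinb6a, an intracellular inhibitor of cathepsin G found in many cell types, had 4549, 6202 and 3672 normalized counts in Het and 5668, 5080 and 4726 in Ko libraries. These values overlapped (log2 difference 0.13, 95% interval -0.32 to 0.58, limma adjusted p = 0.833). Serpinb6b had 558, 815 and 1199 in Het and 492, 136 and 58.7 in Ko libraries, without overlap. It was 3.75-fold lower on average (857 ± 323 against 229 ± 231, SD, n = 3 each), with a log2 difference of -2.36 ± 0.68 (SE) and a limma adjusted p of 0.159. DESeq2 gave it an adjusted p of 0.0436 and it had 0.0968 in the authors' deposited table. Serpinb6c had 242 and 92.3 in Het2 and Het3, 1.12 in Het1, and 0, 0 and 1.43 in Ko libraries. Ko libraries held 1 read of it against 407 in Het libraries, a rate 276-fold higher in Het with a 95% interval of 49.2 to 10918 that covers counting error only. The gene reached the level tested through Het2 and Het3. Het1 stood with the Ko libraries, and limma gave an adjusted p of 0.309, while the authors' deposited table gave 0.00174.

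Serpinb1a inhibits neutrophil elastase, proteinase 3 and cathepsin G and was the second most abundant member. It had 4823, 10053 and 6002 normalized counts in Het and 2874, 4801 and 6101 in Ko libraries, with overlap (log2 difference -0.60 ± 0.31 (SE), limma adjusted p = 0.453). Serpinb1b, its paralog, had 49.8, 424 and 218 in Het and 3.09, 1.04 and 103 in Ko libraries. Ko3 lay inside the Het range, and the log2 difference was -4.14 ± 1.52 (SE) with a limma adjusted p of 0.269. Over the 12 tested Serpinb1, Serpinb6, Serpinb8 and Serpinb9 genes, 5 differences were above 0 and 7 below, with a median of -0.83. Markers of other cells were measured beside these genes. The 6 tested myeloid markers all had differences below 0, of which limma called 1, edgeR 0 and DESeq2 3 (5 at an unadjusted limma p under 0.05), with a summed level of 9794 to 54592 in Het and 582 to 3230 in Ko libraries. In that myeloid sum Lyz2 alone gave 53300 of the 54592 in Het1. Adgre1, among the 3 DESeq2 calls, had a Ko mean of 2.06 and reached the level tested only through the Het group. The 7 markers of the Aire stage of medullary thymic epithelium, Ctsz among them, also had differences below 0, of which limma called 1, edgeR 1 and DESeq2 5 (6 at an unadjusted limma p under 0.05), with sums of 93155 to 232322 and 63932 to 104495. These Aire stage sums overlapped between the groups, and Cd74 made up most of the sum in each library. Secretory and goblet-like markers had 8 of 9 differences below 0, with 3 called lower by limma, 0 by edgeR and 4 by DESeq2, and sums of 135009 to 198593 in Het and 8478 to 106534 in Ko libraries. Reg3g alone gave 113982 of the 135009 in Het1 and 156514 of the 198593 in Het3. Bpifa1, whose difference was above 0, gave 74210 of the 106534 in Ko2. Microfold markers had 5 of 7 below 0, with 2 called lower by limma, 2 by edgeR and 3 by DESeq2, and sums of 21151 to 39910 and 9271 to 11301. No marker of these 4 lists was at 0 in all libraries, and their part in the serpin levels was not tested.

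The chromosome 1 cluster holds serpins of surface epithelium. Serpinb2, a urokinase inhibitor of keratinocytes and macrophages, had 11677, 11042 and 22621 normalized counts in Het and 6389, 11693 and 765 in Ko libraries. Ko2 lay within the Het range and Ko3 far under it. The means were 15113 ± 6510 and 6282 ± 5465 (SD, n = 3 each), with a log2 difference of -1.89 ± 0.79 (SE) and a limma adjusted p of 0.333. Without Ko3 the log2 difference was -0.73. Serpinb11, an epithelial member, had 7721, 1920 and 9703 in Het and 3258, 1493 and 407 in Ko libraries. Het2 lay below Ko1, and the log2 difference of -2.06 ± 0.74 (SE) had a limma adjusted p of 0.255.

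Serpinb7, a member known from skin and kidney, had Het values close to each other. It was at 1598, 1480 and 1232 in Het and 456, 197 and 0 in Ko libraries. A count of 0 in Ko3 allows up to 4.30 normalized counts, the level of 3 reads there. The groups did not overlap, and the mean was 6.60-fold lower in Ko libraries (1437 ± 187 against 218 ± 229, SD, n = 3 each). The wide Ko range left the log2 difference at -4.99 ± 1.80 (SE) with a limma adjusted p of 0.256, and without Ko3 it was -2.25. Serpinb12, an inhibitor of trypsin-like proteases, varied widely within the Het group, with 14.5, 154 and 1669, and had 2.06, 0 and 78.8 in Ko libraries. Serpinb5, known as maspin and not an inhibitor, had 285, 1270 and 985 in Het and 818, 508 and 189 in Ko libraries, with overlap (log2 difference -0.73 ± 0.64 (SE), limma adjusted p = 0.684). Without Ko3 its log2 difference was -0.14.

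Of the 8 tested members of this cluster, 6 had a difference below 0 and the median was -1.31. Keratinocyte-like markers were measured beside them. Of 11 tested, 8 had a difference below 0 and 3 above, and limma called none of them, with 4 at an unadjusted p under 0.05, while edgeR called 0 and DESeq2 called 1. Their mean log2 level was 10.5, 9.92 and 10.0 in Het and 9.58, 8.38 and 8.21 in Ko libraries, while their summed levels overlapped, at 32971 to 39006 and 18727 to 39597. Ivl, the gene of the cornified envelope protein involucrin, had 234, 1123 and 69.3 in Het and 8.23, 2.07 and 0 in Ko libraries (limma adjusted p = 0.0655). Ivl was the DESeq2 call and, with a Ko mean of 3.43, reached the level tested only through the Het group. No marker of the list was at 0 in all libraries, and its part in the levels of the cluster was not tested.

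**Figure D4:**
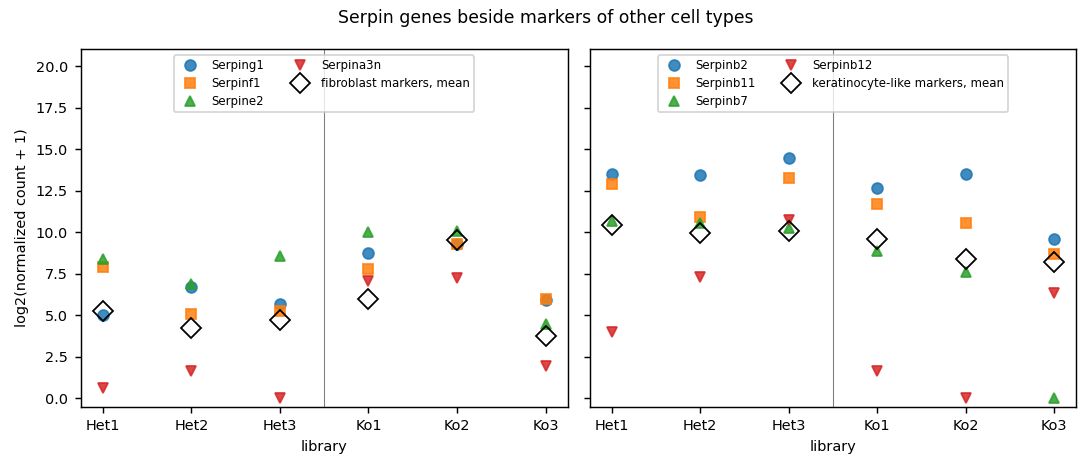
Points give log2(normalized count + 1) in each of the 6 libraries (x axis), at left for Serping1, Serpinf1, Serpine2 and Serpina3n with the mean of 7 fibroblast markers (diamonds), and at right for 4 chromosome 1 serpins with the mean of 11 keratinocyte-like markers. At left, the diamonds and the serpins are highest in Ko2 or Ko1, and at right Ko3 has the lowest diamond and the lowest Serpinb2, Serpinb11 and Serpinb7 points.

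Clade A was sparse, and its most abundant members, Serpina7 and Serpina3g, overlapped between the groups. Serpina3g, an intracellular inhibitor of cysteine cathepsins in immune cells, had 498, 263 and 416 normalized counts in Het and 493, 444 and 322 in Ko libraries. The values overlapped throughout (log2 difference 0.13, 95% interval -0.73 to 0.98, limma adjusted p = 0.925). Serpina7, the thyroxine carrier of plasma, which lies on the X chromosome, was at 223, 645 and 677 in Het and at 472, 582 and 563 in Ko libraries (log2 difference 0.22, 95% interval -0.77 to 1.22, limma adjusted p = 0.879). Serpina3n, a secreted acute phase inhibitor, was close to absent in Het libraries at 0.559, 2.13 and 0, and had 132, 151 and 2.86 in Ko libraries. Ko1 and Ko2 were high, and Ko3, with 2 reads, could not be told apart from the Het libraries at this depth. Its 276 reads in Ko against 4 in Het libraries gave a 106-fold higher mean level in the group through which the gene reached the level tested, with a log2 difference of 4.66 ± 1.72 (SE) and a limma adjusted p of 0.270. The authors' deposited table gave it 0.00104. Serpina3f had 1.12, 1.42 and 1.44 in Het and 0, 45.6 and 70.2 in Ko libraries, so Ko1 stood with the Het group.

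Serpina12, the adipose hormone vaspin and an inhibitor of kallikrein 7, was lower in Ko libraries. It had 129, 510 and 401 in Het and 111, 25.9 and 77.3 in Ko libraries, without overlap. The mean was 4.85-fold lower (347 ± 196 against 71.5 ± 42.9, SD, n = 3 each). The log2 difference of -2.27 ± 0.76 (SE) had a limma adjusted p of 0.225, and the authors' deposited table gave 0.0261. Serpina10, an inhibitor of activated coagulation factor X, was found mainly in Het1 at 99.5 and Het2 at 26.3. All 6 Serpina1 genes, which encode the alpha-1 antitrypsin of plasma, stayed below the level tested. Hepatocyte and gut markers, measured beside these plasma proteins, summed to 1127 to 10226 in Het and 1450 to 2295 in Ko libraries. Of 11 tested, 9 had a difference below 0, and limma called 0, with 1 at an unadjusted p under 0.05, as did edgeR and DESeq2. Alb, Fgb, Fgg, Hnf4a and Apob had Ko means under 10 and reached the level tested only through the Het group. The part of these markers in the clade A levels was not tested.

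Among the members outside the clusters, Serping1 and Serpinh1 had higher means in Ko libraries. Serping1, the inhibitor of the complement proteases C1r and C1s, had 31.9, 101 and 50.5 normalized counts in Het and 430, 635 and 58.7 in Ko libraries. Ko3 lay within the Het range. The mean was 6.13-fold higher in Ko libraries (61.1 ± 35.7 against 375 ± 292, SD, n = 3 each), and the log2 difference of 2.19 ± 0.92 (SE) had a limma adjusted p of 0.334. The authors' deposited table gave 0.0323. Serpinh1, the collagen chaperone of the endoplasmic reticulum also known as HSP47, had 167, 68.2 and 175 in Het and 299, 383 and 222 in Ko libraries, without overlap. It was 2.21-fold higher in Ko libraries, with a log2 difference of 1.22 ± 0.55 (SE), a limma adjusted p of 0.365 and 0.146 in the authors' deposited table. Serpinf1, a secreted anti-angiogenic member, had 239, 31.9 and 37.5 in Het and 218, 634 and 61.6 in Ko libraries. Serpine2, an inhibitor of thrombin and urokinase at the cell surface, had 334, 114 and 374 in Het and 1007, 1088 and 21.5 in Ko libraries.

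Fibroblast markers were measured in the same libraries. All 7 were tested and 6 had a difference above 0, with none called by limma (2 at an unadjusted p under 0.05), 0 by edgeR and 2 by DESeq2, and 3 higher in the authors' deposited table. Their summed level was 1302, 1170 and 792 in Het and 2560, 13480 and 884 in Ko libraries, and the mean log2 level was 5.97, 9.55 and 3.77 in Ko libraries against 4.24 to 5.27 in Het libraries. The 2 DESeq2 calls, Dpt and Lum, had Het means of 0.186 and 5.78 and reached the level tested only through the Ko group. Their differences thus do not support a direction of the list. Lum was at 0 in Ko3, and Dpt was at 0 in Het2 and Het3. Without Ko2 the log2 difference was 1.53 for Serping1, 3.74 for Serpina3n and 1.03 for Serpinh1. The part of these markers in the serpin levels was not tested. Serpini1, the neuronal inhibitor of tissue plasminogen activator, had 158, 745 and 556 in Het and 115, 859 and 473 in Ko libraries, with wide ranges in both groups.

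**Figure D5:**
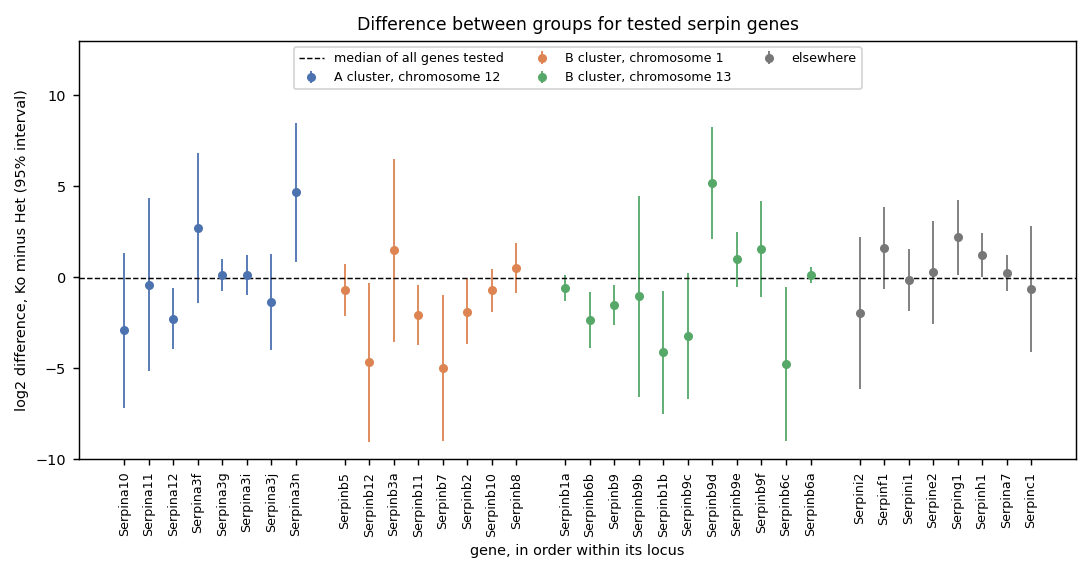
Points give the log2 difference, Ko minus Het, of 35 of the 36 tested serpins with its unadjusted 95% interval (y axis), in order within the 3 clusters and elsewhere (x axis); the dashed line is the median of all genes tested. Intervals are wide, most include 0, and Serpinb9d stands above and Serpinb9 and Serpinb6b below 0 within one cluster.

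Proteases and partners of serpins were measured as well. Among these lists, limma called genes in the papain family of cathepsins, 2 of 9 tested, both lower, where edgeR called 2 and DESeq2 called 4. Ctsc, which activates granule serine proteases, had 6517, 9701 and 8737 normalized counts in Het and 1608, 1693 and 2388 in Ko libraries (log2 difference -2.14 ± 0.21 (SE), limma adjusted p = 0.00868). Ctsz, a lysosomal carboxypeptidase, had a log2 difference of -2.06 ± 0.25 (SE) and a limma adjusted p of 0.0121. Ctsh and Ctss had differences of -1.88 and -1.30 with limma adjusted p of 0.0826 and 0.116. The groups did not overlap in any of these 4. Their list had 6 differences below 0 of 9.

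Plasminogen activation genes gave no limma call among 10 tested, with 3 at an unadjusted p under 0.05, and none by edgeR or DESeq2. The authors' deposited table called 2 of them, with an adjusted p of 0.000251 for Hgfac, higher in Ko, and 0.00901 for Plau, lower. Plau, the urokinase that Serpinb2 inhibits, had 129, 38.3 and 167 in Het and 3.09, 18.6 and 14.3 in Ko libraries (log2 difference -3.15 ± 1.12 (SE), limma adjusted p = 0.252). Plat, the tissue plasminogen activator, had 1005, 493 and 753 in Het and 533, 46.6 and 37.2 in Ko libraries, with an overlap by Ko1 (limma adjusted p = 0.184). Among 7 coagulation and complement proteases none was called by limma (2 at an unadjusted p under 0.05) or edgeR, 1 was called by DESeq2, and 3 were higher and 1, F2, lower in the authors' deposited table. The DESeq2 call, Cfd, had a Het mean of 0.481 and reached the level tested only through the Ko group. F2, with a Ko mean of 4.73, did so only through the Het group. C1s1, a target of Serping1, had 147, 177 and 157 in Het and 274, 391 and 589 in Ko libraries (log2 difference 1.31 ± 0.45 (SE), limma adjusted p = 0.235). C1ra, its partner, was at 8.39, 7.10 and 17.3 in Het and at 65.8, 62.2 and 83.1 in Ko libraries (limma adjusted p = 0.287). In both, each Ko library was above each Het library.

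The other lists had no call by limma or edgeR, and DESeq2 called 1 gene in them, Cpa3, a granule or mast cell protease. At an unadjusted p under 0.05 limma gave 0 granule and mast cell proteases, 2 membrane-anchored proteases, 2 pancreatic-type proteases and 2 clearance and collagen partners. All 9 tested granule and mast cell proteases had a difference below 0 (median -2.11), and the smallest limma adjusted p was 0.422. Cpa3, Mcpt1, Mcpt2, Mcpt8, Gzma, Gzmc and Tpsab1 had Ko means of at most 2.60. They reached the level tested only through the Het group, so their signs do not support a direction of the list. Cma1 and Gzmm had higher means in Ko (77.5 and 82.2) than in Het libraries (48.1 and 63.1). Of 13 membrane-anchored trypsin-like proteases 10 were below 0, and of 9 pancreatic-type serine proteases 7 were below 0. In these lists Tmprss3, Tmprss6, Tmprss11a, Prss1, Prss2, Try4 and Cela3b also reached the level tested only through the Het group. Tmprss11b and Cela1 did so only through the Ko group. Among 17 clearance receptors and collagen partners 10 were above 0. Col4a1, a basement membrane collagen that Serpinh1 helps to fold, had 453, 794 and 733 in Het and 1210, 1658 and 1028 in Ko libraries (log2 difference 0.99 ± 0.31 (SE), limma adjusted p = 0.193).

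The 27 members below the level tested had means of up to 8.83 and single values of up to 44.7 normalized counts. Serpina1a, Serpina1c and Serpinb3d had no read in any library. Several were seen mainly in 1 library, as Serpina1e with 44.7 in Het3, Serpina9 with 43.3 in Het2, Serpinb3c with 44.2 in Het1 and Serpinb13 with 25.7 in Ko1. The 80 reads of Serpinb3c in Het libraries, 79 of them in Het1, stood against 0 in the Ko group. With the group floor of 3 reads this is at least 18.1-fold higher in Het. That bound rests on Het1 and does not cover the spread among libraries. No test was made on these members.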

How the data were processed

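RNA-seq was analysed from L1CAM-sorted thymic tuft cells of 2 genotypes, 3 libraries each. STAR 2.7.9a, DESeq2 and the build GRCm39 are named in the submitters' processing notes. No source used here names the counter, the annotation release or the strandedness. The deposited signal is each gene's count after the authors divided it by a size factor of its library. A second deposited table by the authors compares the groups, and holds log2 fold changes with raw and adjusted p-values, per the file headers. Among genes of mean 50 or more, 99.9% have its sign as Ko over Het. Het columns were matched to the WT label by elimination, and no column could be tied to a single sample.

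Whole reads were recovered by dividing by the value of 1 read, and 100% of values came out whole within 0.01. Genes with a mean of at least 10 were tested on log2(value + 1), which understates changes of low genes, by limma 3.58.1 (trend, two-sided, Benjamini-Hochberg over 19416 genes at 0.05). An exact permutation test of 3 against 3 libraries cannot go below 0.1. The replicates were all kept as separate samples. EdgeR 4.0.16 and DESeq2 1.42.0 were run on the reads. The limma fit was repeated with other pseudocounts, filters, scalings and each library left out, and edgeR was not. DESeq2 without each library was added after seeing the data. All fits were tested on simulated data. For 1 to 3 reads in a group, a rate ratio with a 95% exact interval was computed.

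Symbols came from a gene name table (55144 of 55471 genes), where Serpinb9h stood under an older name and was found through RefSeq synonyms. Genes annotated as pseudogenes in RefSeq and in GENCODE M21 were set aside (6), and Serpinb10 was kept since RefSeq lists it as coding. Order in clusters was read from RefSeq GRCm38.p6. Members, gene lists, markers and the rule for naming were chosen with earlier results of these data known. By that rule the values of each library are given for members called by any tool, for members with a mean of at least 50 whose groups do not overlap, for the 8 most abundant members and for the most abundant paralog of each. Of each partner list the rule took the genes called by limma, or otherwise up to 3 with the smallest p. Values of Serpina3f, Serpina7, Serpina10, Serpinc1, Serpinb12, Serpinb9c, Serpinb9e, Serpine2, Serpinf1 and Serpini1 and the untested members, and of Ctsh, Ctss, Gzmb and the marker genes, were added after they were seen. So were the group means of partner genes. Values of 1 tested member are not reported here and are left out of the figures, though it is included in the counts and sums.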

Additional observations from a re-analysis of the deposited data

How the results depend on the processing

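No paired analysis was possible because the column numbers could not be tied to the sample labels, whose numbers are not shared between the genotypes. The count of serpins called stayed at 0 higher and 0 lower under other pseudocounts, filters and scalings, in edgeR and with each library left out of the limma fit, and was 3 and 4 in DESeq2. Over all genes limma called 158, edgeR 75 and DESeq2 1118. Without a library limma called 0 (Het2 or Het3 left out, with 2127 and 2085 genes at an unadjusted p under 0.05) to 81 (without Het1), with 15 without Ko3, 54 without Ko2 and 74 without Ko1. The share of limma calls that were higher in Ko was 35.4% with all libraries, 51.9% without Het1 and 13.3% without Ko3. DESeq2 called 1 to 8 serpins when a library was left out, against 7 with all, and 867 to 1498 of all genes, against 1118. Leaving out a library turned the sign of the log2 difference of Serpina3g (range -0.14 to 0.32), Serpinb6a (-0.046 to 0.33) and Serpinb9b (-2.71 to 2.19), and of no other member that the naming rule took. Among other members given with values, it also turned that of Serpina7 (-0.30 to 0.50), Serpinc1 (-1.62 to 0.44), Serpine2 (-0.69 to 2.10) and Serpini1 (-0.83 to 0.66). The causes were not tested. At the lowest depth, in Het3 and Ko3, 3 reads are worth 4.33 and 4.30 normalized counts, so lower values there are near the limit of detection.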

Other observations

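Serpin pseudogenes set aside from the family were also read. Serpina3h, annotated as a pseudogene between Serpina3g and Serpina3i, had 83.9, 133 and 146 normalized counts in Het and 120, 110 and 94.5 in Ko libraries, and Serpina3d-ps had 59.2 in Het3 and at most 0.559 elsewhere.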
